A study of Mus musculus with 186 samples.

Results

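Actb, PGK and CMV are 3 promoters that drive transgenes in many vectors, and their activity was measured at 1 chromosomal site of mouse embryonic stem cells (ESCs). They are the constructs carrying these names in 3 pools of promoter constructs. The 8 libraries of the series list 572 construct entries, in which a promoter counts once per library. Actb, PGK and CMV each have an entry in all 3 pools. The choice of the 3 names used no measured value. Activity was measured by TrAC-seq, in which each construct carries random barcodes in its transcript. The barcoded constructs were inserted by recombinase-mediated cassette exchange (RMCE) into the beta-globin locus, which is silent outside red blood cell precursors. Activity is the ratio of RNA to DNA barcode reads, averaged over the barcodes of a construct, and is given here as log2. A constant of 0.05 added to each ratio sets the lowest possible log2 activity at -4.32, and values within 0.5 of it are called near the lowest value.

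WT cells are the untreated parental ESC line with the exchange site and intact DNA methyltransferase genes. TKO cells are a single edited line derived from it by CRISPR-Cas9 deletion of Dnmt1, Dnmt3a and Dnmt3b, the enzymes that write and maintain DNA methylation. All cells compared carry the same site and a reporter that encodes GFP without CpGs, and each group has 3 replicates. The housekeeping pool (10 constructs, WT only) holds promoters of broadly expressed mouse genes beside the CMV promoter. The CpG density pool (83 constructs, WT only) adds E. coli sequences upstream of a minimal promoter, and the Snx3 pool (44 constructs, WT and TKO) adds versions of the Snx3 promoter in which blocks of CpGs were mutated. According to the study's description of the libraries, cells with the housekeeping constructs were mixed into the other pools in WT, whereas in TKO the constructs were mixed as DNA and inserted together. The 9 WT replicates are therefore not 9 separate insertions of these promoters, and the cell line cannot be told apart from the round of insertion. Nothing states that replicates of a pool came from separate insertions, so p-values cover only the spread between them.

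Actb encodes cytoplasmic beta-actin, a main protein of the cytoskeleton. Pgk1 encodes phosphoglycerate kinase, an enzyme of glycolysis, and its promoter is a CpG island without a strong tissue preference. The CMV promoter is the immediate early promoter of human cytomegalovirus, a compact and strong viral element that is known to lose activity in some stem cells after integration. All 3 are common choices to express selection markers and transgenes, so their order of strength at a single-copy site is of practical interest.

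The deposited base composition gives the inserts as 589 bp for Actb, 618 bp for PGK and 764 bp for CMV. The Actb insert had 54.8% G+C and 38 CpGs, which is an observed over expected CpG ratio (OE) of 0.859. The PGK insert had 61.8% G+C and 43 CpGs, with an OE of 0.728. The CMV insert had 47.1% G+C and 38 CpGs, with an OE of 0.896. All 3 are thus CpG-rich for their base composition, and CMV is the longest insert of the housekeeping pool.

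The composition of the PGK insert could be placed on the mouse genome. Of 9 windows of 618 bp on chromosome X of mm9 with exactly its numbers of C, G and CpG, 6 lie at the start of Pgk1 (ENSMUSG00000062070.6, plus strand, chrX:103382439-103399038). The 6 windows start between bases 103381997 and 103382005 and end between 103382614 and 103382622. They hold the upstream region and the first bases of the annotated gene. The 250 bases of mm9 just before the annotated start, at chrX:103382189-103382438, lie within all 6 windows and are shown with each CpG in capitals, because PGK carried the most CpGs of the 3 inserts and was the least active.

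Pgk1 upstream, plus strand: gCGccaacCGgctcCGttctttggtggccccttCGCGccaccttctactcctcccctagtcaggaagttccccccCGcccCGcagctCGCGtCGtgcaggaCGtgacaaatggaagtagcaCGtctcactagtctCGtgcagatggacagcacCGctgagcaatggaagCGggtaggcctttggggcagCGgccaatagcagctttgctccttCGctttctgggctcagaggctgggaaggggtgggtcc

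These 250 bases hold 17 CpGs, against a median of 6 over the same stretch of 32851 RefSeq promoters on GRCm38.p6, of which 23.5% had at least 17. The motif GGGCGG, searched on both strands, occurred 1 time, on the minus strand 176 bases before the start, and was present in 32.7% of the RefSeq promoters. The motif CCAAT occurred 1 time, on the plus strand 58 bases before the start, and was present in 33.8%. The motif TATAAA had no match in this window and was present in 12.4% of promoters. GGGCGG and CCAAT do not overlap. The Actb gene (ENSMUSG00000029580.7) lies on the minus strand at chr5:143664794-143668433, but no window near its start had the composition of the Actb insert. The closest one differed by 9 in the summed counts of C, G and CpG, so no sequence is given for Actb. Of the 9 mouse inserts of the housekeeping pool, PGK was the 1 that could be placed in this way.

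Total numbers of barcodes per replicate ranged from 159 to 905, and the precision of a construct rests on its own number. CMV had 47 to 423 barcodes in WT, which was 23.5% to 56% of a replicate's barcodes, and 72 to 103 in TKO. Actb had 13 to 63 in WT and 13 to 23 in TKO. PGK had 2 to 5 barcodes in WT and 2 or 3 in TKO. A value is listed only from 3 barcodes on, so PGK had a value in 6 of 9 WT replicates and in 2 of 3 TKO replicates, whereas Actb and CMV had one in all 12. Read depth behind the ratios is unknown.

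Actb was the most active of the 9 promoters shared by the 3 pools in 9 of 9 WT replicates. In the housekeeping pool its log2 activity was 2.12, 1.82 and 1.1 in replicates 1, 2 and 3 (mean 1.68 ± 0.52, SD, n = 3). In the CpG density pool it was 1.80, 0.36 and 0.73 (0.96 ± 0.75, n = 3), and in the WT cells of the Snx3 pool 0.84, 2.63 and 2.12 (1.86 ± 0.92, n = 3). Among all constructs of a pool with a value, Actb ranked first in 8 of these 9 replicates and second in replicate 1 of the Snx3 pool. The construct below it by mean was the Psmd4 promoter in the housekeeping and CpG density pools (a proteasome subunit gene), at 0.05 ± 0.57 and -0.86 ± 0.52 (n = 3 each). In the Snx3 pool it was a mutated version of the Snx3 promoter at 0.55 ± 1.15 (n = 3), whose range overlapped that of Actb.

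CMV took a middle place in WT. Its log2 activity was -0.86, -1.61 and -2.59 in the housekeeping pool (mean -1.69 ± 0.87, n = 3). It was -1.91, -2.52 and -2.18 in the CpG density pool (-2.20 ± 0.31, n = 3) and -1.95, -1.31 and -1.61 in the WT cells of the Snx3 pool (-1.62 ± 0.32, n = 3). CMV ranked 4th or 5th among the shared promoters with a value in each of the 9 replicates. No CMV value was near the lowest one. By mean it stood above Polr2g, the gene of an RNA polymerase II subunit, in the housekeeping and CpG density pools, and below Pigm and Snx3, respectively. In the CpG density pool the gap between CMV and the Snx3 promoter was only -0.04 on the log2 scale (Snx3 -2.16 ± 0.49, n = 2).

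PGK stayed at the low end. Its log2 activity was -3.38 and -3.19 in replicates 2 and 3 of the housekeeping pool. It was -4.32 and -4.24 in replicates 1 and 2 of the CpG density pool, and -4.32 and -3.38 in replicates 1 and 3 of the WT Snx3 pool. Thus 3 of its 6 WT values were near the lowest value, and the others lay between -3.38 and -3.19. PGK ranked 10th of 10 by mean in the housekeeping pool and 8th of the 9 shared promoters in both other pools. The housekeeping mean of PGK lacks replicate 1, where other weak promoters read high (Kdelr1 -1.98, Tpp1 -1.63). Within replicates 2 and 3 of that pool PGK ranked 7th and 6th of 10. Over its 6 WT values, its rank among the shared promoters ran from 6 to 8.5 (a tie). Every PGK value rests on 5 barcodes or fewer, so a weak activity that varies between barcodes was not measurable at this depth.

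**Figure D1:**
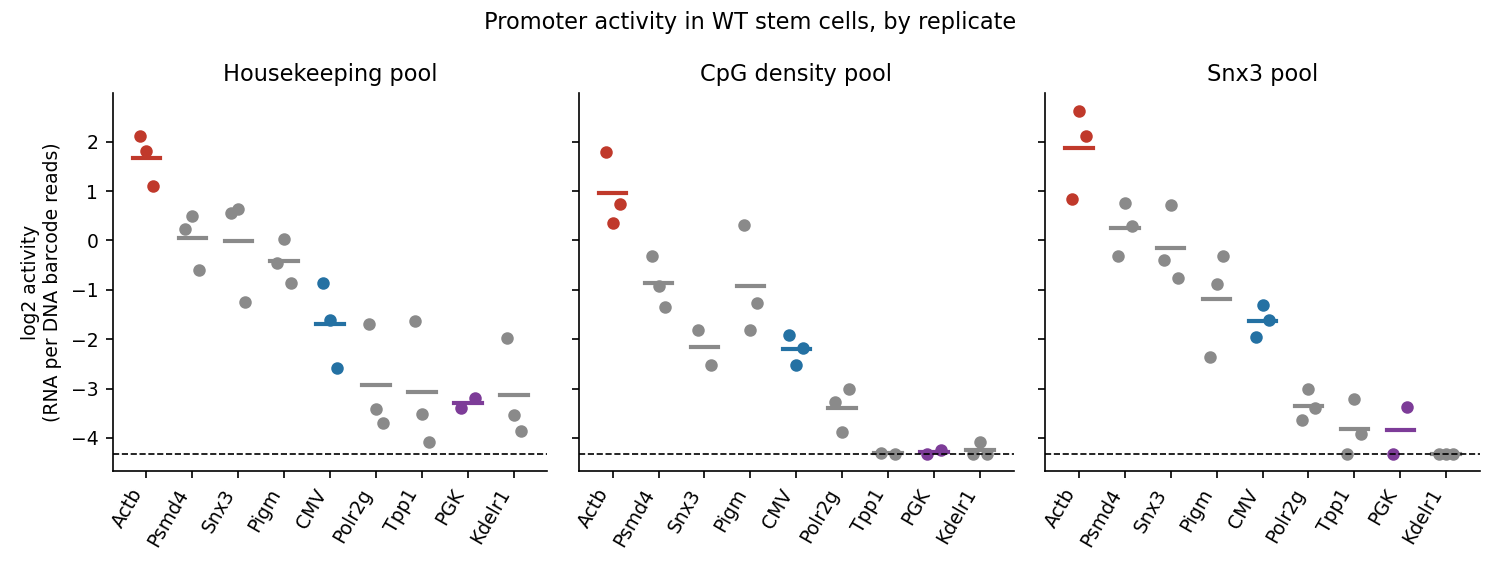
Log2 activity (y axis, RNA per DNA barcode reads) of the 9 promoters shared by the 3 pools in WT cells, with 1 point per replicate, a bar at the mean and a dashed line at the lowest possible value of -4.32. Actb (red) is highest in each pool, CMV (blue) lies in the middle, and PGK (purple) has 2 values per pool, of which 3 of the 6 in all are within 0.5 of the dashed line.

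The E. coli sequences give the background of the CpG density pool. Of 8 that had values in at least 2 replicates, 7 were near the lowest value by mean, and their means ranged from -4.32 to -3.75. Actb was above every E. coli sequence with a value in all 3 replicates (12, 12 and 3 sequences). CMV was above 11 of 12, 12 of 12 and 3 of 3. PGK was above 10 of 12 in both replicates with a value, but by its mean (-4.28 ± 0.06, n = 2) it lay within the range of the E. coli means.

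Pools were scaled separately, so promoters were compared by their difference in log2 activity within a replicate. This also removes what all constructs of a replicate share. The SD of the Actb level over the 9 WT replicates was 0.77 and that of CMV 0.56, whereas the SD of Actb minus CMV was 0.45. The SD of PGK was 0.54, and those of Actb minus PGK and CMV minus PGK were both 0.65 (n = 6 each). Only Actb minus CMV thus varied less than both of its promoters. Differences were tested with a two-sided exact sign-flip test over WT replicates, with Benjamini-Hochberg adjustment over the 36 pairs of the 9 shared promoters. In 29 of the 36 pairs (80.6%) the adjusted p was under 0.05, so a call among these promoters is common and the size of a difference says more than the call. Among the 21 pairs with Actb, CMV or PGK, 18 were called.

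Actb exceeded CMV in 9 of 9 WT replicates. The difference was 2.98, 3.43 and 3.69 in the housekeeping pool, 3.70, 2.89 and 2.91 in the CpG density pool, and 2.79, 3.94 and 3.73 in the Snx3 pool. The 3 pools overlapped, with means of 3.36, 3.16 and 3.49. The mean over all replicates was 3.34 ± 0.45 (SD, n = 9), or 10.1-fold, with adjusted p = 0.0108 by the exact sign-flip test. Within 1 pool, 3 replicates cannot reach a p below 0.25. Without the housekeeping pool or without the Snx3 pool the adjusted p was 0.0865 and 0.0804, with differences of 3.33 and 3.26.

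Actb exceeded PGK in 6 of 6 WT replicates with both values. The difference was 5.20 and 4.29 in the housekeeping pool, 6.11 and 4.60 in the CpG density pool, and 5.16 and 5.50 in the Snx3 pool. The mean was 5.14 ± 0.65 (n = 6), or 35.4-fold, with adjusted p = 0.0388 by the exact sign-flip test. CMV exceeded PGK in 6 of 6 as well, by 1.78 and 0.60, 2.41 and 1.71, and 2.38 and 1.77 in the same order of pools. Here the mean was 1.77 ± 0.65 (n = 6), or 3.42-fold, with the same adjusted p of 0.0388 from the exact sign-flip test, since 0.0313 is the smallest unadjusted p that 6 replicates allow. Because the added constant holds PGK up, the true ratios to PGK may be larger. Leaving out any replicate with a PGK value raised the adjusted p to between 0.075 and 0.0776 for both pairs.

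**Figure D2:**
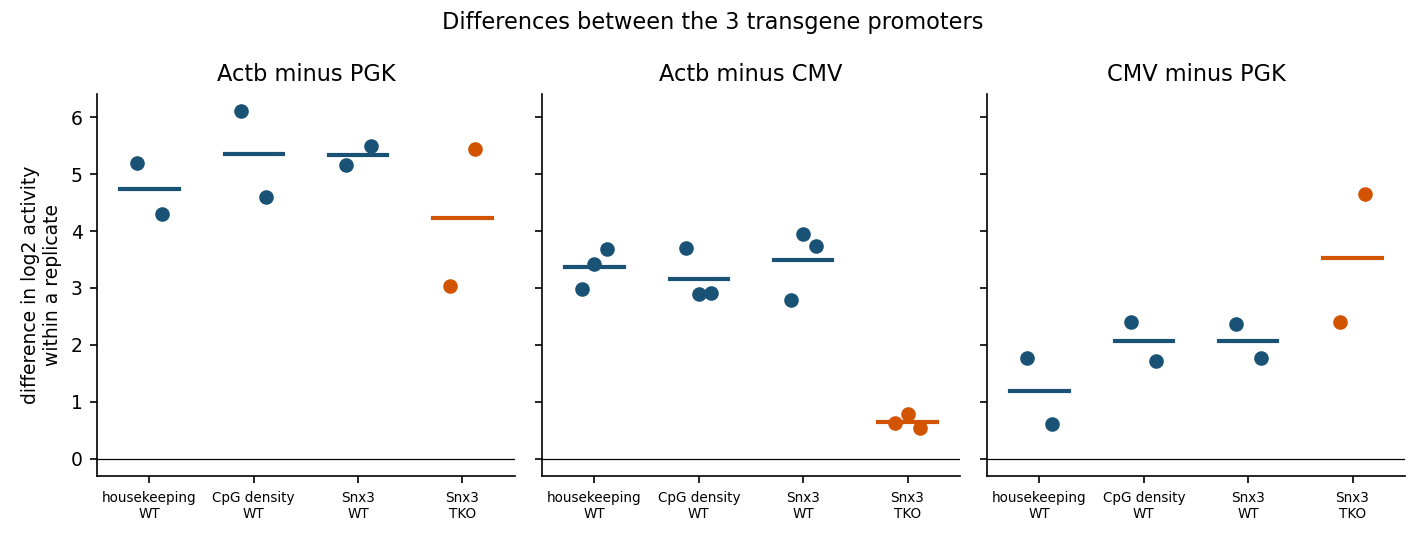
Difference in log2 activity within a replicate (y axis) for Actb minus PGK, Actb minus CMV and CMV minus PGK, by pool and cell line, with 1 point per replicate (2 or 3 per group) and a bar at the mean. Actb minus CMV lies between 2.79 and 3.94 in the 9 WT replicates (blue) and between 0.54 and 0.78 in the 3 TKO replicates (orange).

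Set against the other shared promoters, Actb was higher in all 8 of its pairs and each passed the test. The smallest of these differences was to Psmd4, at 1.69 ± 0.36 (n = 9, adjusted p = 0.0108 by the exact sign-flip test), and the largest to Kdelr1, at 5.40 ± 0.93 (n = 9). All 8 pairs with CMV passed too, 4 with CMV higher (Polr2g, Tpp1, Kdelr1 and PGK) and 4 with CMV lower (Actb, Psmd4, Snx3 and Pigm). PGK passed in 5 pairs, in each as the lower promoter. It was not told apart from Tpp1, Kdelr1 and Polr2g, where the differences of PGK minus the other were 0.27 ± 0.37, 0.27 ± 0.44 and -0.25 ± 0.56 (n = 6 each, adjusted p = 0.141, 0.205 and 0.386, exact sign-flip test). Those 3 genes encode a lysosomal peptidase, a receptor that returns proteins to the endoplasmic reticulum and a polymerase subunit. PGK, Tpp1 and Kdelr1 were all near the lowest value in CpG density replicates 1 and 2 and WT Snx3 replicate 1. There the added constant holds their differences small, so these replicates cannot tell them apart. In the other WT replicates with a PGK value, PGK was above both. It was at -3.38 against -3.51 and -3.54 (Tpp1 and Kdelr1) in housekeeping replicate 2. In housekeeping replicate 3 the values were -3.19 against -4.08 and -3.87, and in WT Snx3 replicate 3 -3.38 against -3.91 and -4.32.

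By the mean absolute difference within a replicate, over all WT and TKO replicates with both values, the promoters most like Actb were Psmd4 (1.51, n = 12) and Snx3 (1.77, n = 11). Those most like CMV were Pigm, the promoter of a gene for anchoring proteins to the membrane (0.91, n = 12), and Snx3 (1.07, n = 11). Those most like PGK were Kdelr1 (0.32, n = 6) and Tpp1 (0.34, n = 8). These PGK means include replicates in which both promoters were near the lowest value, where the added constant keeps differences small.

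CpG content did not order these 3 promoters by activity. PGK had the second highest G+C content and the second highest CpG number per 100 bp of the 10 inserts in the housekeeping pool, and the lowest mean activity. That mean lacks replicate 1, and within replicates 2 and 3 PGK ranked 7th and 6th of 10 in activity. By OE it ranked 6th of 10, the lowest of the 3. CMV had the second highest OE and ranked 5th in activity, and Actb had the third highest OE and ranked 1st. Tpp1, with an OE of 0.125, was close to PGK in mean activity (-3.07 ± 1.28, n = 3, against -3.29 ± 0.14, n = 2). In replicates 2 and 3 alone Tpp1 was lower, at -3.51 and -4.08 against -3.38 and -3.19 for PGK. Over the 10 inserts, Pearson's r between OE and mean log2 activity was 0.45 and Spearman's correlation coefficient 0.49. Spearman's coefficient was 0.19 for G+C content and 0.25 for CpGs per 100 bp. These are given as a description, since the points share the same replicates and the same insertion. The PGK mean used in them lacks replicate 1.

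**Figure D3:**
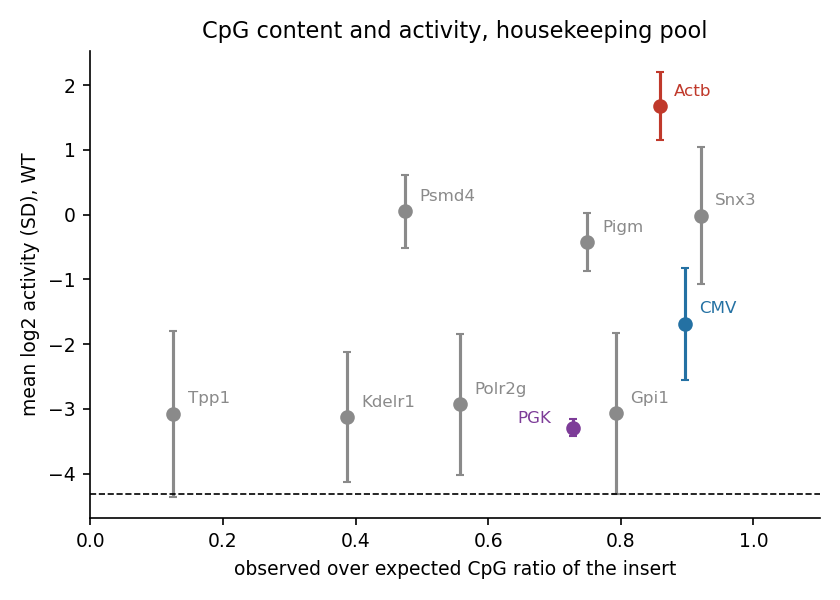
Mean log2 activity in WT cells of the housekeeping pool (y axis, error bars SD, n = 3 replicates and n = 2 for PGK) against the observed over expected CpG ratio of the insert (x axis), with a dashed line at the lowest possible value. Actb, CMV and PGK all lie above 0.7 on the x axis but span from 1.68 to -3.29 on the y axis. The PGK mean lacks replicate 1, which the means of the other promoters include.

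In TKO cells Actb, CMV and PGK stood in the same order as in WT cells, but at other distances. The comparison asks whether promoter activity depends on DNA methyltransferases. In replicates 1, 2 and 3 of TKO cells, Actb had a log2 activity of -1.29, 1.12 and 0.54, compared to 0.84, 2.63 and 2.12 in WT cells of the same pool. CMV had -1.91, 0.34 and 0.00 in TKO, compared to -1.95, -1.31 and -1.61 in WT. PGK had -4.32 in both TKO replicates with a value, both near the lowest value. The levels of Actb overlapped between the cell lines, and so did those of CMV, whose replicate 1 in TKO was within the WT range.

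The difference within a replicate did separate the cell lines. Actb minus CMV was 0.62, 0.78 and 0.54 in the 3 TKO replicates and 2.79, 3.94 and 3.73 in the 3 WT replicates. The mean was 3.49 ± 0.61 in WT, or 11.2-fold, and 0.65 ± 0.12 in TKO, or 1.57-fold (n = 3 each), so that TKO minus WT was -2.84. The two-sided exact permutation test gave p = 0.1, the smallest value that 3 against 3 replicates allow. Of the 406 pairs of 29 constructs with values in all 6 replicates, 20% had differences that did not overlap between the cell lines, but only 2 pairs differed by as much as Actb and CMV, that pair included, against a median absolute difference of 0.68. The TKO values also lay outside the range of the WT replicates in the housekeeping and CpG density pools. Since the TKO constructs were inserted anew, the part of the separate insertion in this difference was not tested.

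Relative to the 28 other constructs with values in all 6 replicates, TKO minus WT for Actb had a median of -1.86 and a range from -3.11 to -0.64. For CMV the median was 1.0 and the range from -0.27 to 2.84. These comparisons share the same Actb or CMV values, so they say no more than that Actb had the lowest and CMV the second highest difference of the 29 constructs. Among the shared promoters, by mean, CMV was 5th of 9 in WT and 3rd of 8 in TKO, where it was only 0.015 above Pigm. Within replicates 1, 2 and 3 CMV ranked 4th, 5th and 5th in WT and 4th, 2nd and 4th in TKO. Actb was 1st by mean in both cell lines, but was 2nd in 2 of the 3 TKO replicates. Among all constructs with a value, Actb ranked 7th of 32, 1st of 33 and 2nd of 31 in TKO, and CMV ranked 11th, 4th and 8th, after 12th of 33, 10th of 32 and 10th of 34 in WT.

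When activity was taken relative to the unmutated Snx3 promoter of the same replicate, as the study scaled its data, and tested by limma over 32 constructs, none passed an adjusted p of 0.05 (0%). At an unadjusted p under 0.05 there was 1 construct, Actb. Relative to Snx3, Actb was at 2.01 in WT and 0.13 in TKO, a difference of -1.88 (SE 0.65, 95% confidence interval -3.16 to -0.60, adjusted p = 0.139 by limma). CMV was at -1.47 and -0.52, a difference of 0.96 (SE 0.65, interval -0.33 to 2.24, adjusted p = 0.747). PGK differed by -0.58 (SE 0.79, interval -2.15 to 0.99, n = 2 in each line, adjusted p = 0.938). The fit gave the same SE of 0.65 to Actb, CMV and all other constructs with 3 values in each line. These SEs, intervals and p-values thus rest on a spread pooled over constructs, not on that of 1 promoter. On activity as deposited, Actb differed by -1.74 with an SE of 0.81 (unadjusted p = 0.0837, adjusted p = 0.576 by limma). Without replicate 3 of WT, the only one with PGK away from the lowest value, the PGK difference was 0.088. The Snx3 reference itself rests on 3 to 7 barcodes per replicate and ranged from -0.77 to 0.71 in WT and from -0.94 to 0.93 in TKO, which adds its own spread to every construct.

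**Figure D4:**
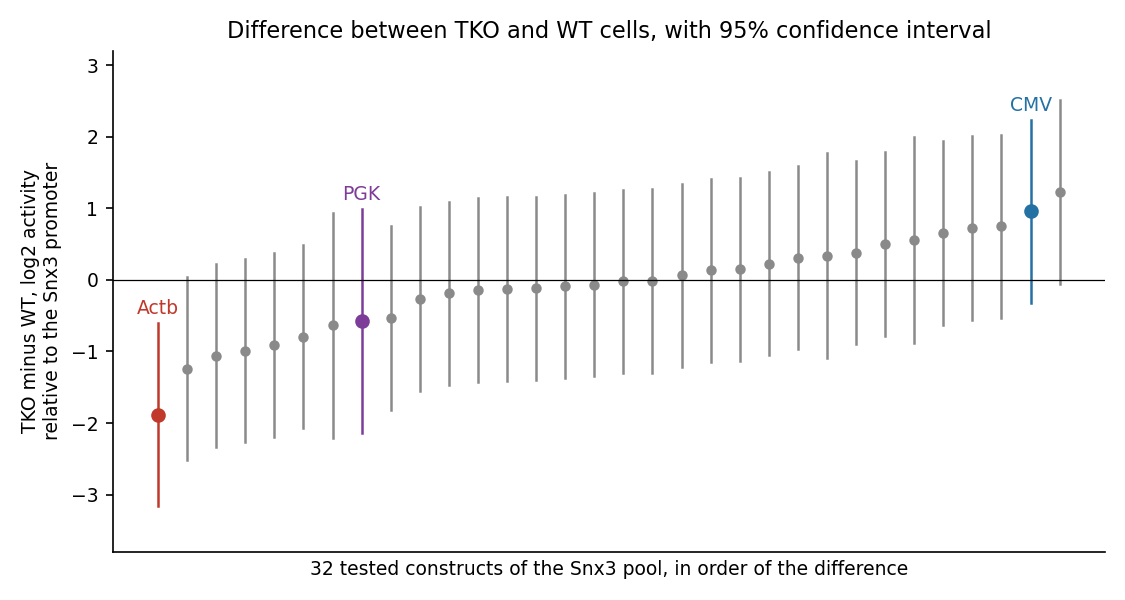
Difference between TKO and WT cells (y axis, log2 activity relative to the Snx3 promoter) for the 32 tested constructs of the Snx3 pool in order of the difference, with the 95% confidence interval from limma as a vertical line. Actb is the lowest at -1.88 and CMV the second highest at 0.96, whereas PGK lies at -0.58 with a wide interval. The intervals rest on a spread pooled over constructs.

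CMV has many more barcodes than Snx3, so the fit was repeated relative to CMV, a scaling chosen after seeing the data. This scaling shifts every construct alike by the difference of CMV itself: the median TKO minus WT was -1.0 relative to CMV, 0.074 as deposited and -0.044 relative to Snx3. The 4 constructs (12.5%) that passed an adjusted p of 0.05 in limma, all lower, were thus tested against CMV and not against the rest of the pool. Actb had the largest difference, at -2.84 (SE 0.69, interval -4.20 to -1.47, adjusted p = 0.00225 by limma). It passed in 4 of the 6 fits that each left out 1 replicate, with adjusted p up to 0.0714, and lost the call without replicate 2 or without replicate 3 of WT. PGK relative to CMV differed by -1.46 (SE 0.84, interval -3.13 to 0.21, adjusted p = 0.274). Here too the spread was pooled, and each construct with 3 values in each line had an SE of 0.69. In absolute terms the PGK differences to the other 2 promoters were too variable to compare, with Actb minus PGK at 5.16 and 5.50 in WT and at 3.03 and 5.44 in TKO, where the exact permutation test gave p = 0.667. CMV minus PGK was 2.38 and 1.77 in WT and 2.41 and 4.66 in TKO (exact permutation p = 0.333, the smallest that 2 against 2 allow).

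RT-qPCR of single clones, with primers in the reporter, was deposited for 10 constructs of the Snx3 pool, of which CMV is the only native or viral promoter. CMV had the highest value, 0.0173 in the deposited scale. The next was a mutated Snx3 promoter at 0.0120, so that CMV was 1.44-fold above it. In TrAC-seq the order of these 2 was the opposite, with mean log2 activities in WT of -1.62 for CMV and 0.16 for the mutant, and in TKO of -0.53 and 0.11. The other 8 constructs were below CMV in all 3 measures, at 4.26-fold or more below it by RT-qPCR. Each RT-qPCR value is a single number with no error, and the cell line of the clones is not given in the sources used here.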

How the data were processed

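Actb, PGK and CMV were chosen by name and not by a measured value. Earlier results of these data were nevertheless known when they and the lists compared with them were chosen. Activities were deposited by the authors as a linear ratio per construct and replicate. To make it, they brought the RNA and DNA barcode reads of a replicate to the same total, used barcodes seen in over 20 DNA reads, added 0.05 to RNA over DNA, and took the geometric mean of the barcodes. The authors assigned barcodes with Bowtie on mm9 or, in the Snx3 pool, by string distance, with versions not given in the sources used here. Numbers of barcodes and of CpGs were deposited as counts, G+C content as percent, CpGs per 100 bases as such and OE as a ratio. RT-qPCR values were deposited without a stated scale. Relative activities and methylation levels of the authors were not used.

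Activities were converted to log2, and constructs measured in 2 or more replicates of a group were summarised (the tables list a value from 3 barcodes on). Differences within replicates were tested with an exact sign-flip test. Differences between cell lines were tested with an exact permutation test or with limma (version 3.58.1, R 4.3.3) over all constructs. Adjusted p-values follow Benjamini and Hochberg, with 0.05 as the threshold. The sign-flip procedure and limma were also run on simulated data. The simulations had no lowest possible value and subtracted no reference promoter, so they do not cover these features of the data. Insert length and base numbers were solved from OE, G+C content and CpG number, and scanned over mm9 (NCBIM37) with GENCODE M1. Coordinates are 1-based. Other constructs were named only when next to Actb, PGK or CMV in order of activity or among the 2 shared promoters closest to one of them, besides the Snx3 reference. E. coli sequences and Snx3 mutants were described as groups. Precision rests on 3 replicates per group and on the number of barcodes, from 159 to 905 per replicate in all. Calculations and plots were made in Python 3.11.15 with numpy 2.4.6, pandas 2.3.3 and matplotlib 3.10.9.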

Additional observations from a re-analysis of the deposited data

Results flagged for a closer look

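For Actb minus CMV in the Snx3 pool, TKO minus WT was -2.84 on the log2 scale. It drew attention because the difference between the cell lines passed limma relative to CMV (adjusted p = 0.00225), a scaling chosen after seeing the data, while the exact permutation test of the same values gave p = 0.1 and could not go lower. The cell line cannot be told apart from the separate insertion of these constructs in TKO cells.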

How the results depend on the processing

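The differences among the promoters kept their sign in every alternative run, but the calls need most of the replicates. Leaving out 1 replicate at a time gave 3.26 to 3.41 for Actb minus CMV, which stayed called, and 4.95 to 5.31 for Actb minus PGK and 1.65 to 2.01 for CMV minus PGK, which were not called when a replicate with a PGK value was left out. Actb minus CMV was 3.33 without the housekeeping pool, 3.26 without the Snx3 pool, and 3.36, 3.16 and 3.49 in the housekeeping, CpG density and Snx3 pools alone, none of them called. Without the CpG density pool it was 3.43 and stayed called (adjusted p = 0.0489, exact sign-flip test). Actb minus PGK was 5.34, 5.04 and 5.05 without the housekeeping, CpG density or Snx3 pool, and 4.75, 5.36 and 5.33 in these pools alone. CMV minus PGK was 2.07, 1.63 and 1.63 without each pool and 1.19, 2.06 and 2.07 in each alone. Without replicates near the lowest value the differences to PGK were 5.0 and 1.38. None of these passed, with 2 to 4 replicates left. The 29 called pairs became 24 to 30 when 1 replicate was left out, 0 without the housekeeping pool, 0 without the Snx3 pool and 0 in each pool alone, but 23 without the CpG density pool. They became 9 of the 28 pairs that could be tested with at least 10 barcodes, and 12 of 34 without values near the lowest one. Values below 3 barcodes were not analysed here, so no fit without a barcode minimum was run, and with at least 10 barcodes PGK has no value.

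Between the cell lines, no construct passed under the other scalings and filters, and 4 did relative to CMV, a scaling chosen after seeing the data. Actb then differed by -2.84 and passed, also with a replicate block (-2.84). When 1 replicate was left out it ranged from -3.19 to -2.61. It passed without WT replicate 1 (-3.19) and without TKO replicate 1, 2 or 3 (-2.82, -2.90 and -2.78), and lost the call without WT replicate 2 or 3 (limma adjusted p = 0.0714 and 0.0676). Whether the replicate numbers pair the samples is not settled. Over 24 constructs the deviations of same-numbered WT and TKO replicates correlated at 0.30, 0.37 and -0.19. Those of unlike numbers correlated at -0.46 to 0.31. In the paired fit relative to Snx3, with the replicate number as a block, Actb differed by -1.88 and CMV by 0.96 as before, and PGK by 0.55 in place of -0.58, since only replicate 1 has a PGK value in both lines. PGK ranged from -1.24 to 0.088 when 1 replicate was left out, and the change of Actb minus PGK from -2.30 to 0.11. Both ranges include 0, so no direction is given for PGK between the cell lines.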
